A study of Mus musculus with 6 samples.

Results

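The matrix metalloproteinases and their tissue inhibitors were followed here through 10 genes listed by symbol: the proteinases Mmp2, Mmp3, Mmp11, Mmp14, Mmp16, Mmp19 and Mmp27, and the inhibitors Timp1, Timp2 and Timp3. All 10 were found among the 23412 genes of the deposited table, and all 10 passed the filter on low values (average over the libraries of 1 FPKM or more), which left 12560 genes for testing. FPKM corrects a gene's fragment count for gene length and library depth. The gene length used is not defined in the labels or headers, so comparisons of level between genes are only approximate. The samples were ventral dermis of 3-week-old mice on a mixed CD1 and C57BL/6 background. The 3 activated beta-catenin mice, called mutants here, carried HoxB6CreERT/+, R26-YFP/+ and CatnbΔex3/+, and the 3 littermate controls carried HoxB6CreERT/+ and R26-YFP/+ alone. Every mouse, controls included, had been exposed to tamoxifen at embryonic day 16.5 through the gavaged mother, and every mouse carried the tamoxifen-dependent Cre and the YFP reporter. Cre acts only where the HoxB6 transgene is active, while RNA was taken from the whole dermis that trypsin had separated from epidermis, so recombined and other cells were measured together.

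Matrix metalloproteinases are zinc-dependent enzymes that cut collagens, proteoglycans and other proteins of the extracellular matrix. Most are made as inactive proenzymes and are switched on when a propeptide is removed. Tissue inhibitors bind the active site of the enzymes, and Timp2 has a further role, in that a complex of Mmp14 and Timp2 at the cell surface captures the proenzyme of Mmp2 so that a neighbouring Mmp14 can cut it. In skin these genes are known from matrix turnover, hair growth and wound repair. Only RNA was measured here, which says nothing of proenzyme activation or of enzyme activity.

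Gene reads, recovered from the FPKM values, were 13478910, 11839144 and 12562416 in mutants 1 to 3 and 9675359, 7799565 and 8931815 in controls 1 to 3. The libraries differed within the groups as well as between them. Mutant 1 and control 2 lay farthest apart on the first principal component of all tested genes, which held 51.0% of the variance. On it mutants 1 to 3 were at 33.9, -0.344 and 8.45 and controls 1 to 3 at -4.74, -34.9 and -2.41. Every mutant lay above every control there. Y-linked genes summed to 47.6 to 63.4 FPKM in the 3 mutants and 56.3 FPKM in control 3, but to 0.0458 and 0.0607 FPKM in controls 1 and 2. Xist was 55.5 and 66.2 FPKM in those 2 controls and at most 0.184 FPKM elsewhere, apart from 6.47 FPKM in mutant 2. Sex was therefore not balanced between the groups. Total Ctnnb1, which encodes beta-catenin, had a log2 difference of -0.15 (adjusted p = 0.895). A gene-level value cannot show the deletion of exon 3, so it does not check the genotype.

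None of the 10 genes passed the test across all genes (limma on log2(FPKM + 1), Benjamini-Hochberg adjusted p under 0.05). Of all tested genes, 18 passed as higher in mutants (0.143%) and 0 as lower (0%). Without adjustment, 8 of the 10 were higher in mutants at p under 0.05 and 0 lower, and over all tested genes 10.5% were higher and 0.748% lower by that rule. For 6 of the 10, Mmp2, Mmp14, Mmp16, Mmp19, Mmp27 and Timp2, every mutant lay above every control, an arrangement found in 13.0% of tested genes. No member had every mutant below every control, which held for 2.65% of tested genes. All 10 had a log2 difference above 0, as did 71.3% of tested genes. The median log2 difference, mutant minus control, was 0.67 over the 10 genes, with a range from 0.08 for Timp3 to 1.01 for Mmp2. Over all tested genes the median was 0.09.

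**Figure D1:**
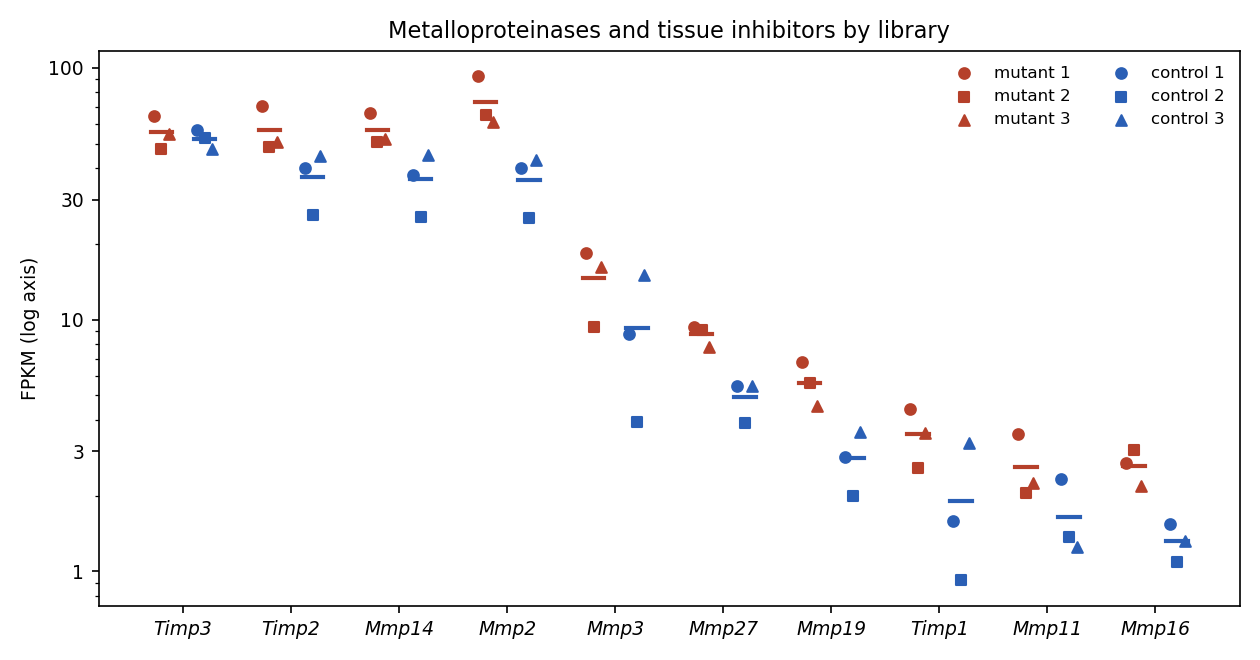
FPKM of the 10 genes on a log axis, with 1 point per library, mutants left of controls, and a bar at each group's mean. Mmp2, Mmp14, Timp2 and Timp3 lie highest and the other genes lower, and the groups are apart for Mmp2, Mmp14, Mmp16, Mmp19, Mmp27 and Timp2.

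The genes fell into an abundant and a scarce set. In mutants, Mmp2, Mmp14, Timp2 and Timp3 averaged 73.0, 56.6, 56.5 and 55.5 FPKM, and the ranges of neighbours in that order overlapped. Mmp3, Mmp27 and Mmp19 followed at 14.7, 8.75 and 5.63 FPKM with ranges that did not overlap, and Timp1, Mmp16 and Mmp11 came last at 3.51, 2.63 and 2.60 FPKM. In controls, Timp3 stood first at 52.3 FPKM, above the whole range of Timp2 at 37.0 FPKM. Mmp14 and Mmp2 averaged 36.1 and 36.0 FPKM there and could not be separated from Timp2. Next in controls came Mmp3 at 9.24 FPKM and Mmp27 at 4.92 FPKM with overlapping ranges, and the other genes averaged under 3 FPKM. Thus Mmp2 had the highest mean of the 10 in mutants and only the fourth in controls.

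Mmp2, a gelatinase that cuts denatured collagen and basement membrane collagen, lies on chromosome 8 at 92827291 to 92853420 (GRCm38, the mm10 build; all gene positions are from GENCODE M21). It was at 92.9, 65.1 and 60.9 FPKM in mutants 1 to 3, against 39.9, 25.3 and 42.9 FPKM in controls 1 to 3. Every mutant was above every control, with mutant 1 well above the rest and control 2 well below. The means were 73.0 ± 17.4 and 36.0 ± 9.46 FPKM (SD, n = 3 each), a ratio of 2.03, and the log2 difference was 1.01 (SE 0.25, 95% interval 0.45 to 1.57, adjusted p = 0.14). Its reads numbered 1218 to 5527 per library, so counting error was small beside the spread between mice. In bulk dermis, more cells of a type and more RNA per cell cannot be told apart. Of fibroblast markers, all 10 of 10 had a log2 difference above 0, as did 71.3% of tested genes, with a median of 0.97. Their FPKM summed to 13749, 9541 and 9584 in mutants and 5142, 2737 and 10512 in controls 1 to 3. Control 3 was thus above mutants 2 and 3 in this sum, unlike for Mmp2. Taken singly, 7 of the 10 markers had every mutant above every control, as Mmp2 did. That arrangement was found in 13.0% of tested genes. The part of fibroblast content in the Mmp2 result was not tested.

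Mmp14, the membrane-type proteinase that activates the Mmp2 proenzyme and also cuts fibrillar collagen, lies on chromosome 14 at 54431612 to 54445364. It was at 66.5, 50.9 and 52.3 FPKM in mutants 1 to 3, against 37.7, 25.5 and 45.1 FPKM in controls 1 to 3. The groups did not overlap, but the gap was narrow, with the lowest mutant only 1.13 times the highest control. Means were 56.6 ± 8.67 FPKM in mutants and 36.1 ± 9.92 FPKM in controls (SD, n = 3 each), with a log2 difference of 0.66 (SE 0.23, 95% interval 0.15 to 1.18, adjusted p = 0.292). Timp2, on chromosome 11 at 118301069 to 118355740, is the inhibitor that joins Mmp14 in capturing the Mmp2 proenzyme and blocks both enzymes when in excess. It was at 70.4, 48.4 and 50.7 FPKM in mutants 1 to 3, against 40.2, 26.1 and 44.8 FPKM in controls 1 to 3. Again every mutant was above every control, and control 3 came close to the lower mutants. Means were 56.5 ± 12.1 FPKM in mutants and 37.0 ± 9.74 FPKM in controls (SD, n = 3 each), with a log2 difference of 0.61 (SE 0.24, 95% interval 0.07 to 1.15, adjusted p = 0.367). Cep295nl lies inside Timp2 on the same strand, and reads of both would not be told apart by strand.

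The sequences just before the RefSeq transcription start (GRCm38.p6) are shown for Mmp14 and Timp2, whose levels ran side by side in the 6 libraries, and for Timp3, which did not follow them. Each runs 5′ to 3′ on the gene's own strand and ends at the base before that start. RefSeq and GENCODE place some starts differently: by the GENCODE positions printed here, the whole Timp2 window and the last bases of the Timp3 window, its motif included, lie inside the gene, while the Mmp14 window lies before it. The windows are chr14:54431348-54431597 on the plus strand, chr11:118355412-118355661 on the minus strand and chr10:86300162-86300411 on the plus strand. Capitals mark GGGCGG, the core of the Sp1 motif, or its complement CCGCCC.
Mmp14: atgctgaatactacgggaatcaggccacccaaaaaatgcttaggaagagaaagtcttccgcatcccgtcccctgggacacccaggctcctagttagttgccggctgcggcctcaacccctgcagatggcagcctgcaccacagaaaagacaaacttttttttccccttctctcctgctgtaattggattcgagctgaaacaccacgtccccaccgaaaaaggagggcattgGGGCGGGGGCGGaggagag
Timp2: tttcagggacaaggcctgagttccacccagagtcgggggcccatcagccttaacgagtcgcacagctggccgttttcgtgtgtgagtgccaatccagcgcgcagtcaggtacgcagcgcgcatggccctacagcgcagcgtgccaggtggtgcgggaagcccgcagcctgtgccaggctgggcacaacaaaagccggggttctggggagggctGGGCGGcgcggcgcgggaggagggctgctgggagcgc
Timp3: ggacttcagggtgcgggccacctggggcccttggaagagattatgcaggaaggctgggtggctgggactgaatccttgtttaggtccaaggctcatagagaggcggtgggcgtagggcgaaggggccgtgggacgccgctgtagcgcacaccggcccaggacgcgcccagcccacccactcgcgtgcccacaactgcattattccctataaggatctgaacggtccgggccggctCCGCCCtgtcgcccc
Mmp14 held the motif at 19 to 14 and at 13 to 8 bases before the RefSeq start, Timp2 at 37 to 32 and Timp3 at 15 to 10. The motif, read on both strands, was present in 32.7% of all 32851 windows of this length in the table. G and C made up 55.2% of the Mmp14 window, 68.0% of the Timp2 window and 65.6% of the Timp3 window, against a median of 52.4% over all windows.

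Timp3, on chromosome 10 at 86300372 to 86349506, is an inhibitor that stays bound to the matrix and also blocks several ADAM and ADAMTS proteinases. It was at 64.2, 47.6 and 54.7 FPKM in mutants 1 to 3, against 56.7, 52.6 and 47.6 FPKM in controls 1 to 3. The groups overlapped over most of their range, and control 2, the lowest library for 8 of the 10 genes, was the middle control here. Means were 55.5 ± 8.30 FPKM in mutants and 52.3 ± 4.56 FPKM in controls (SD, n = 3 each), with a log2 difference of 0.08 (SE 0.18, 95% interval -0.33 to 0.49, adjusted p = 0.936). The interval leaves out a change as large as that of Mmp2. Under median-of-ratios scaling, which follows the middle gene of each library, its log2 difference was -0.04, and without mutant 1 it was -0.03, so the sign of this small value was not stable. Timp3 lies inside Syn3, a neuronal gene on the opposite strand, which was at 0.294 to 0.472 FPKM in mutants and 0.479 to 0.516 FPKM in controls, far below Timp3.

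Timp1, on chromosome X at 20870166 to 20874735, inhibits most secreted metalloproteinases and is weak against the membrane types. It was at 4.42, 2.58 and 3.54 FPKM in mutants 1 to 3, against 1.58, 0.921 and 3.23 FPKM in controls 1 to 3. Mutant 2 was below control 3, so the groups overlapped, and the controls themselves spanned 3.51-fold. Means were 3.51 ± 0.921 FPKM in mutants and 1.91 ± 1.19 FPKM in controls (SD, n = 3 each), with a log2 difference of 0.69 (SE 0.27, 95% interval 0.09 to 1.29, adjusted p = 0.361). Timp1 rested on only 13 to 77 reads per library. Without control 3 the adjusted p was 0.0377, but control 3 is the only control with Y-linked RNA, so sex and genotype cannot be told apart in that fit. In a fit with a term for library sex, controls 1 and 2 set only that term, so the mutants were compared with control 3 alone. By that fit the log2 difference of Timp1 was 0.07. With no sex term and without control 2 it was 0.43. Timp1 lies inside Syn1, a neuronal gene on the opposite strand, which was at 0.239 to 0.365 FPKM in mutants and 0.256 to 0.275 FPKM in controls. The library kit marks strand, but no source used here says whether counting used it.

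**Figure D2:**
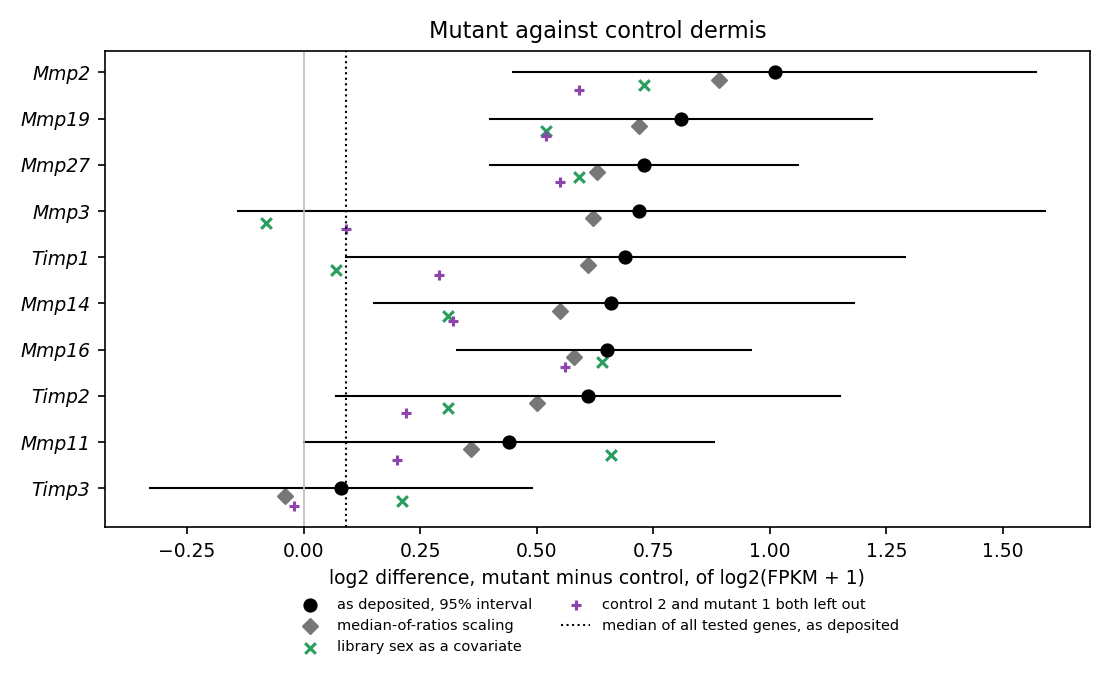
Log2 difference, mutant minus control, of each gene with its 95% interval from limma on log2(FPKM + 1), with the value under median-of-ratios scaling, with a term for library sex, and with control 2 and mutant 1 left out as further marks; the dotted line is the median of all tested genes (0.09). Mmp2 has the largest value at 1.01, Timp3 the smallest at 0.08, and the intervals of Mmp3 and Timp3 include 0. The values with a term for library sex set the mutants against control 3 alone.

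Mmp3 and Mmp27 lie in the metalloproteinase cluster of chromosome 9, at 7445822 to 7455975 and at 7571396 to 7581885. The cluster holds 10 Mmp genes between 7272514 and 7699585, and these 2 were the only ones above the filter. Mmp1a, Mmp10 and Mmp8 lie between them. Their upstream windows are shown as those of the tested cluster genes, and the part of these sequences in the levels was not tested. Both are on the plus strand, chr9:7445572-7445821 for Mmp3 and chr9:7571146-7571395 for Mmp27. Capitals mark TGAGTCA, the AP-1 motif, and TATAAA, the core of the TATA box.
Mmp3: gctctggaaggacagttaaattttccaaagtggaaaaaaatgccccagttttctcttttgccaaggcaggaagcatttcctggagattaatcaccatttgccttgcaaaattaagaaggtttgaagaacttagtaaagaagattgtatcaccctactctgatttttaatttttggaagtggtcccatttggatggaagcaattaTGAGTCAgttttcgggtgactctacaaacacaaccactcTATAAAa
Mmp27: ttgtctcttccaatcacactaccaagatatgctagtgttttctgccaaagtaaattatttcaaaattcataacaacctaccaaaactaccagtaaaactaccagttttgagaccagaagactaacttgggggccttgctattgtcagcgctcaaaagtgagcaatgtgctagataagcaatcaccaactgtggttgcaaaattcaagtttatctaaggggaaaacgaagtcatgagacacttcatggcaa
In the Mmp3 window TGAGTCA stood 46 to 40 bases and TATAAA 7 to 2 bases before the start. RefSeq and GENCODE place that start at the same base. Whether either word acts from its position was not tested. Read on both strands, these words were present in 4.46% and 12.4% of all windows. No motif searched was found in the Mmp27 window. The words CTTTGAA and CTTTGAT, which TCF and LEF factors bind, were in none of the 7 member windows in the table and in 4.46% and 3.21% of all windows. No match in these 250 bases says nothing of sites elsewhere.

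Mmp3, stromelysin-1, cuts proteoglycans and fibronectin and can activate other proenzymes. It was at 18.4, 9.37 and 16.2 FPKM in mutants 1 to 3, against 8.81, 3.92 and 15.0 FPKM in controls 1 to 3. Control 3 was above mutant 2, and the controls spanned 3.82-fold, the widest control range of the 10 genes. Means were 14.7 ± 4.70 FPKM in mutants and 9.24 ± 5.54 FPKM in controls (SD, n = 3 each), with a log2 difference of 0.72 (SE 0.39, 95% interval -0.14 to 1.59, adjusted p = 0.553). In the fit with a term for library sex, which set the mutants against control 3 alone, the Mmp3 value was -0.08, of opposite sign. With no sex term, it was 0.27 without control 2 and 1.12 without control 3. Mmp27, a little-studied member of the stromelysin group, was tighter. It was at 9.35, 9.08 and 7.80 FPKM in mutants 1 to 3, against 5.43, 3.88 and 5.45 FPKM in controls 1 to 3. The groups stood clear of each other, and mutants 1 and 2 were almost level. Means were 8.75 ± 0.825 FPKM in mutants and 4.92 ± 0.899 FPKM in controls (SD, n = 3 each), with a log2 difference of 0.73 (SE 0.15, 95% interval 0.40 to 1.06, adjusted p = 0.0957). That was the smallest adjusted p of the 10 genes.

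Mmp16, on chromosome 4 at 17852893 to 18119145, is a second membrane-type enzyme that can activate the Mmp2 proenzyme. It was at 2.69, 3.03 and 2.18 FPKM in mutants 1 to 3, against 1.55, 1.09 and 1.32 FPKM in controls 1 to 3. Here mutant 2, not mutant 1, was highest, and the groups did not overlap. Means were 2.63 ± 0.430 FPKM in mutants and 1.32 ± 0.232 FPKM in controls (SD, n = 3 each), with a log2 difference of 0.65 (SE 0.14, 95% interval 0.33 to 0.96, adjusted p = 0.108). Its reads numbered 79 to 296 per library. The pseudogene Gm11860 lies inside Mmp16 on the opposite strand. The added pseudocount holds down the log2 difference of such low genes.

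Mmp19, on chromosome 10 at 128790910 to 128800824, cuts basement membrane proteins. It was at 6.76, 5.59 and 4.53 FPKM in mutants 1 to 3, against 2.86, 1.99 and 3.58 FPKM in controls 1 to 3. Every mutant was above every control, with control 3 nearest to the mutants. Means were 5.63 ± 1.12 FPKM in mutants and 2.81 ± 0.798 FPKM in controls (SD, n = 3 each), with a log2 difference of 0.81 (SE 0.18, 95% interval 0.40 to 1.22, adjusted p = 0.119). Without control 3 the adjusted p was 0.0354, again with sex and genotype not to be told apart. With a term for library sex, which left control 3 as the only control compared, the log2 difference was 0.52. Tmem198b overlaps the end of Mmp19 on the opposite strand and was at 1.67 to 2.05 FPKM in mutants and 1.35 to 2.06 FPKM in controls, without a gap between the groups. Gm47093, an antisense gene, also overlaps Mmp19.

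Mmp11, stromelysin-3, on chromosome 10 at 75923222 to 75936496, is activated inside the cell by furin. It was at 3.52, 2.04 and 2.24 FPKM in mutants 1 to 3, against 2.33, 1.37 and 1.25 FPKM in controls 1 to 3. Control 1 lay above mutants 2 and 3, so the groups overlapped. Means were 2.60 ± 0.805 FPKM in mutants and 1.65 ± 0.589 FPKM in controls (SD, n = 3 each), with a log2 difference of 0.44 (SE 0.20, 95% interval 0.00 to 0.88, adjusted p = 0.442). Chchd10, a mitochondrial protein gene that overlaps Mmp11 on the opposite strand, was at 9.27, 6.62 and 4.71 FPKM in mutants and 4.89, 3.66 and 7.06 FPKM in controls. Reads of the overlap would be assigned uncertainly if strand was not used.

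Ratios within a library do not depend on any scaling that all its genes share, so 5 ratios between members were tested over libraries. The ratio of Mmp2 to Timp2 was 1.32, 1.34 and 1.20 in mutants 1 to 3, against 0.993, 0.967 and 0.958 in controls 1 to 3. Mutants stood apart from controls, and within each group the ratio was far steadier than either gene. The log2 ratio averaged 0.36 ± 0.09 in mutants and -0.04 ± 0.03 in controls (SD, n = 3 each), a difference of 0.40. The two-sided exact permutation test gave p = 0.1, the smallest that 3 against 3 libraries allow, and 0.25 after adjustment over the 5 ratios. The ratio of Mmp2 to Mmp14 was 1.40, 1.28 and 1.16 in mutants, against 1.06, 0.992 and 0.952 in controls, also without overlap. Its log2 difference was 0.35, with the same exact permutation p = 0.1 and 0.25 after adjustment. Both ratios share Mmp2, so they are not separate evidence.

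The other ratios overlapped between groups. The ratio of Mmp14 to Timp2 was 0.945, 1.05 and 1.03 in mutants, against 0.940, 0.975 and 1.01 in controls. FPKM of membrane-type enzyme and inhibitor thus stood near 1 to 1 in all 6 libraries, by gene lengths that are not defined. This ratio had a log2 difference of 0.05 (exact permutation p = 0.4, adjusted 0.4). The ratio of Mmp3 to Timp1 was 4.15, 3.63 and 4.59 in mutants, against 5.56, 4.26 and 4.63 in controls. It had a log2 difference of -0.22 (exact permutation p = 0.2, adjusted 0.25), although each of the 2 genes alone varied more than 3-fold among controls. The ratio of Timp3 to Timp2 was 0.912, 0.983 and 1.08 in mutants, against 1.41, 2.01 and 1.06 in controls. Control 3 lay within the mutants' range, and the log2 difference was -0.55 (exact permutation p = 0.2, adjusted 0.25).

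**Figure D3:**
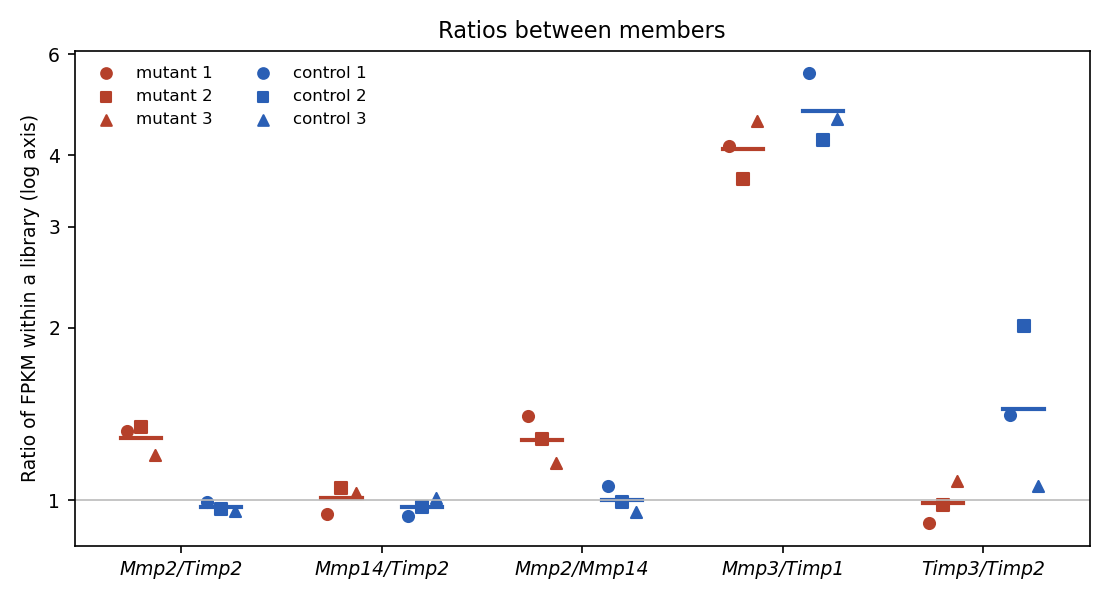
The 5 FPKM ratios between members in each library on a log axis, with mutants left of controls and a bar at each group's geometric mean. Mmp2 to Timp2 and Mmp2 to Mmp14 are apart between the groups, while Mmp14 to Timp2 lies near 1 in all 6 libraries.

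Summed over the 7 proteinases, FPKM was 200.1, 145 and 146 in mutants, against 98.6, 63.0 and 115 in controls. Mmp2 and Mmp14 made up 77.4% to 79.9% of that sum in mutants and 76.8% to 80.5% in controls, although the balance between these 2 genes differed, as their ratio shows. The 3 inhibitors summed to 139, 98.6 and 109 FPKM in mutants, against 98.4, 79.6 and 95.6 FPKM in controls. Timp3 made up 46.2%, 48.3% and 50.2% of the inhibitor sum in mutants, against 57.6%, 66.0% and 49.7% in controls. The proteinase sum over the inhibitor sum was 1.34 to 1.47 in mutants, against 0.791 to 1.20 in controls. Every mutant was above every control in it. The sums were not tested.

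Single libraries carried much of the range. Mutant 1 was the highest of the 6 libraries for 9 of the 10 genes, and control 2 the lowest for 8. Set against the mean of the controls on the log2(FPKM + 1) scale, the median of the 10 genes was 0.92, 0.47 and 0.56 in mutants 1 to 3 and 0.12, -0.39 and 0.29 in controls 1 to 3. The median of all tested genes, set the same way, was 0.25, -0.06 and 0.10 in mutants and 0.07, -0.11 and 0.04 in controls. Mutant 1 and control 2 thus lay at opposite ends for all genes as well. With both left out, the median log2 difference was 0.30 for the 10 genes and -0.04 for all tested genes. Without control 2 alone these medians were 0.43 and 0.03. Leaving out the extreme libraries of most members lowers their difference by construction. Control 3 is the only control with Y-linked RNA, as in the mutants. Against control 3 alone, every mutant was higher for 8 of the 10 genes, all but Mmp3 and Timp1, while this held for 27.8% of tested genes. For Timp3 the margin was nil: both the lowest mutant and control 3 were at 47.6 FPKM. The fit with a term for library sex also compared the mutants with control 3 alone, because controls 1 and 2 set only that term. Its log2 differences were 0.73 for Mmp2, 0.66 for Mmp11, 0.64 for Mmp16, 0.59 for Mmp27 and 0.52 for Mmp19. By the same fit they were 0.31 for Mmp14, 0.31 for Timp2, 0.21 for Timp3 and 0.07 for Timp1, and no member passed the threshold. The median of the 10 genes in that fit was 0.41.

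**Figure D4:**
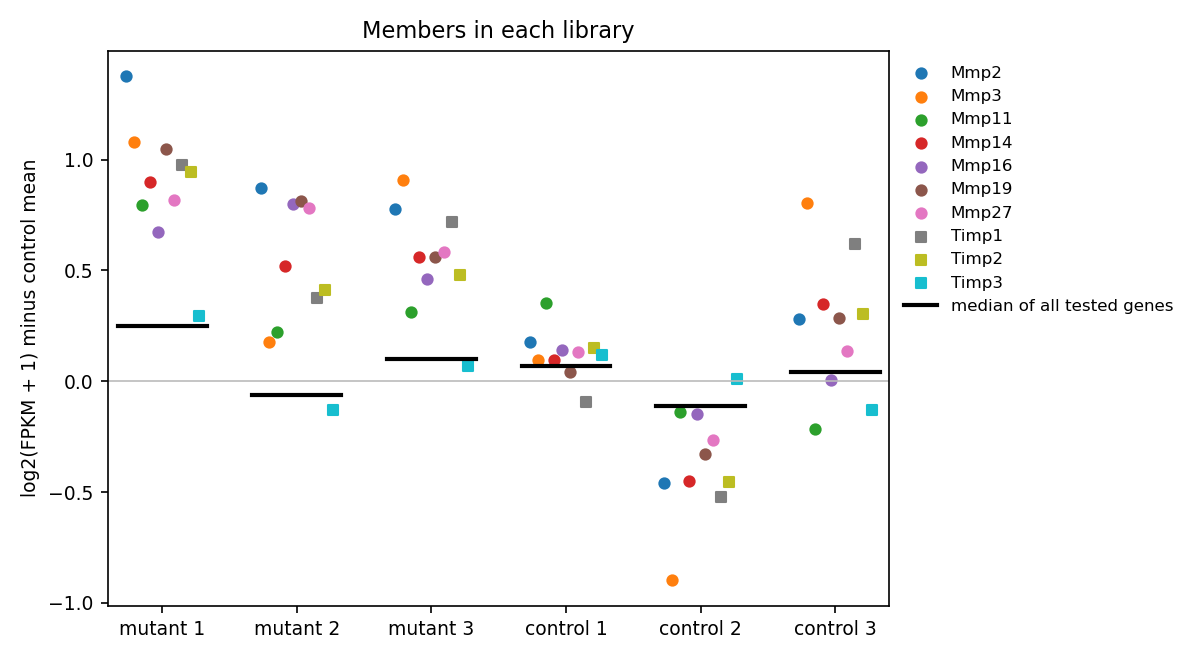
Each gene in each library as log2(FPKM + 1) minus its control mean, with a bar at the median of all tested genes. Most genes are highest in mutant 1 and lowest in control 2, and Mmp3 and Timp1 in control 3 reach the range of the mutants.

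The rest of the family was mostly scarce. Of 17 other genes, the remaining metalloproteinases and Timp4, 14 were below the filter, with means of at most 0.903 FPKM, and 4 of those had no read in at least 1 library. Of the 3 tested, Mmp23, a membrane-bound enzyme, was at 17.0, 11.0 and 10.4 FPKM in mutants, against 4.10, 3.39 and 8.96 FPKM in controls. The groups did not overlap, and the log2 difference of 1.15 (adjusted p = 0.162) was larger than that of any of the 10 members. Timp4, the fourth inhibitor, and the membrane-type enzyme Mmp15 had log2 differences of 0.40 (adjusted p = 0.563) and 0.19 (adjusted p = 0.739). Mmp12, the macrophage elastase of the chromosome 9 cluster, was below the filter at 0.978, 0.792 and 0.730 FPKM in mutants, against 0.212, 0.192 and 0.0556 FPKM in controls. It rested on 186 reads summed over the mutants and 27 over the controls, and with no filter its adjusted p was 0.0883. Mmp24, Mmp25 and Mmp28 were the other scarce genes with every mutant above every control. They rested on 29, 44 and 162 reads summed over the mutants and 8, 6 and 74 over the controls. With no filter their limma adjusted p-values were 0.342, 0.133 and 0.418. The share of all genes below the filter with this arrangement was not computed.

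**Figure D5:**
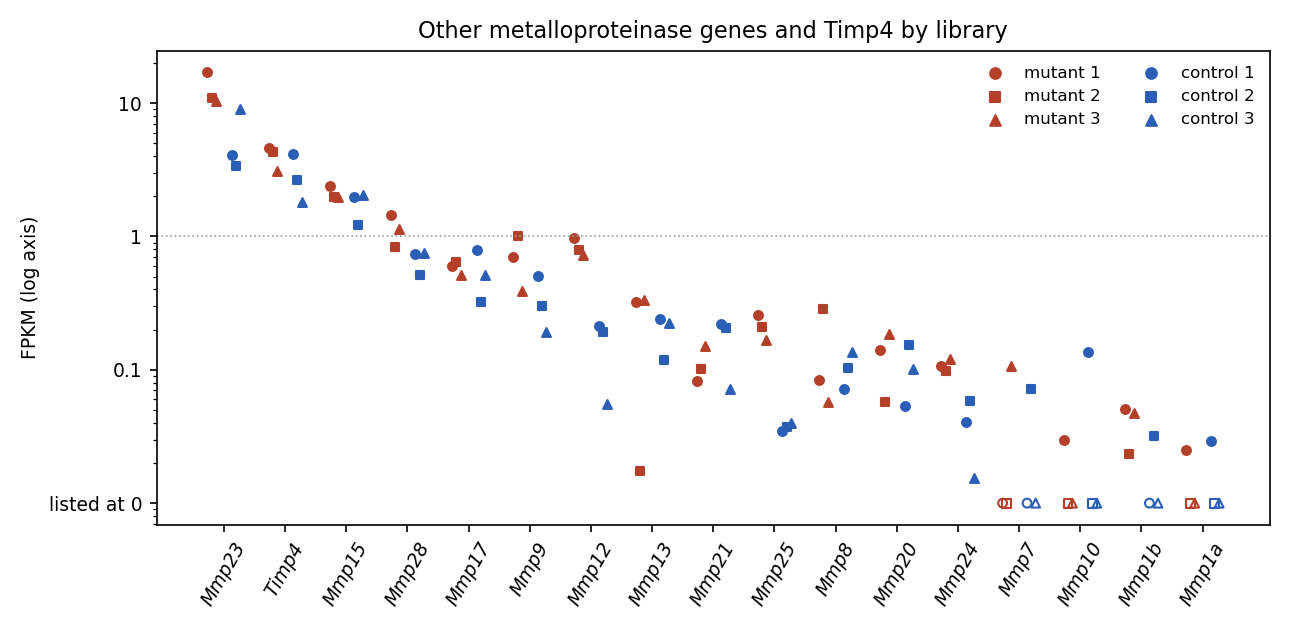
FPKM of the metalloproteinase and Timp genes outside the 10 members in each library on a log axis, mutants left of controls, with open marks for values listed at 0 and a dotted line at 1 FPKM. Mmp23 is the most abundant of them, and Mmp12 lies low with its groups apart.

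The tested macrophage markers had log2 differences of the same direction as the members. Of 10, 9 were tested, all 9 had a log2 difference above 0 and 8 had every mutant above every control, with a median of 1.05. Over all tested genes 71.3% were above 0 and 13.0% had every mutant above every control, with a median of 0.09. Fcer1g, an Fc receptor chain, was the marker that passed the test and rose (log2 difference 1.30, adjusted p = 0.0242). Macrophage marker FPKM summed to 383, 213 and 239 in mutants, against 117, 82.8 and 142 in controls. Mast cell markers summed to 74.5, 42.7 and 41.4 FPKM in mutants, against 29.1, 17.3 and 18.6 FPKM in controls, with a median log2 difference of 1.29 over the 5 tested. None of the marker genes was at 0 in all libraries. Endothelial, pericyte, keratinocyte and Schwann cell markers had medians of 0.22, 0.20, 0.23 and 0.18, and adipocyte and skeletal muscle markers of 0.85 and 0.36. Hair follicle markers had a median of -0.24, with 0 of 7 above 0. Hair follicle genes at 2540.1 to 5104 FPKM in sum in mutants and 4476 to 4546 FPKM in controls show that follicle tissue was part of the dermis samples. The part of any of these cell types in the members' values was not tested.

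Genes that control or clear metalloproteinases were followed as a list of 18, of which 16 were tested and 0 passed. Of the 16, 13 were above 0 and 5 had every mutant above every control, with a median log2 difference of 0.30. Over all tested genes 71.3% were above 0 and 13.0% had every mutant above every control. Thbs2, thrombospondin-2, which binds Mmp2 and carries it to the scavenger receptor Lrp1, came close to the threshold. It was at 48.9, 29.1 and 30.3 FPKM in mutants, against 13.4, 9.17 and 13.1 FPKM in controls, with a log2 difference of 1.50 (adjusted p = 0.0505). With no filter the limma adjusted p of Thbs2 was 0.117. Reck, a membrane-anchored inhibitor of several metalloproteinases, was at 12.3, 8.48 and 8.93 FPKM in mutants, against 5.49, 4.21 and 6.19 FPKM in controls. Its groups did not overlap either, with a log2 difference of 0.79 (adjusted p = 0.114). Plaur, the urokinase receptor that localises plasminogen activation, had a log2 difference of 0.51 (adjusted p = 0.227).

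Of the related ADAM and ADAMTS proteinases, 21 of 23 were tested and 0 passed, with 18 above 0 and a median log2 difference of 0.32. Every mutant was above every control for 5 of them and below every control for 1. Over all tested genes 71.3% were above 0, 13.0% had every mutant above every control and 2.65% every mutant below. Adam8, a cell-surface proteinase, had a log2 difference of 0.68 (adjusted p = 0.0883), Adamts2, which removes the procollagen amino-propeptide, 1.14 (adjusted p = 0.161), and Adamtsl2, a binding protein without proteinase activity, 0.84 (adjusted p = 0.162). Matrix substrates of the enzymes had a median of 0.78. Of the 22 tested, 0 passed, 20 were above 0 and 12 had every mutant above every control. FPKM of this list summed to 16885, 11556 and 11785 in mutants, against 6502, 3528 and 12302 in controls. Control 3 was above mutants 2 and 3 in that sum. Lumican (Lum), a proteoglycan of collagen fibrils, had a log2 difference of 1.50 (adjusted p = 0.0845), versican (Vcan) 0.70 (adjusted p = 0.143) and fibrillin-1 (Fbn1) 1.05 (adjusted p = 0.185). AP-1 and ETS factors, which bind many metalloproteinase promoters, had a median of 0.20, with 0 of 11 tested past the threshold and 10 above 0. Elk3 and Ets1, both ETS factors, had log2 differences of 0.38 (adjusted p = 0.244) and 0.30 (adjusted p = 0.446). Fos, an AP-1 subunit, had a log2 difference of 0.38 (adjusted p = 0.598) and overlapped between groups.

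Genes with a profile most like the mean of the 10 members were ranked by the root mean square difference of centred log2(FPKM + 1) values over the 6 libraries. The nearest were Cfp, which encodes properdin, at 0.0350, Lrrc33 at 0.0426, Oaf at 0.0467, the scavenger receptor Scara3 at 0.0472 and the laminin chain Lama4 at 0.0533. Their log2 differences ran from 0.64 to 0.70, near those of the members because the genes were chosen for a like profile. Of the genes that report canonical Wnt signalling, Axin2 was at 9.14, 8.75 and 8.90 FPKM in mutants, against 7.71, 6.31 and 7.72 FPKM in controls. Lef1 was at 14.6, 12.1 and 15.5 FPKM in mutants, against 18.1, 17.1 and 17.4 FPKM in controls. Neither overlapped between groups, Axin2 being higher and Lef1 lower in every mutant, with log2 differences of 0.27 (adjusted p = 0.461) and -0.31 (adjusted p = 0.464).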

How the data were processed

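Total RNA of dermis was made into libraries with the TruSeq Stranded Total RNA kit, per the labels' protocols. Per the submitters' processing notes the tools were GSNAP and HTSeq and the build mm10. No source used here gives their options or the annotation. The authors deposited 1 FPKM value per gene and library, with a depth and gene length that no label or header defines. Values were compared as log2(FPKM + 1), which understates the change of low genes, with limma 3.58.1 (R 4.3.3, intensity trend, two-sided, Benjamini-Hochberg over 12560 genes, 3 against 3 libraries, no covariate). Within a gene, FPKM values are whole multiples of a step, which gave whole reads for 20144 of 20144 genes above 0 in 2 or more libraries (100.0%, relative tolerance 3e-09). The smallest solution was taken. These reads served for depth and for a limma-voom alternative, which called 80 genes higher. The labels name separate mice, and p-values measure the spread between them.

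The 10 members and the gene lists were chosen with earlier results of these data known, so their direction is not independent evidence. Named were all members, genes overlapping them, Ctnnb1, Axin2 and Lef1, and in each list called genes and the 3 with the smallest p. The 5 nearest profiles were named as well. Of the cell type lists only the called gene is named, and Mmp12, Mmp24, Mmp25 and Mmp28 were named after their values were seen. Upstream sequences of 250 bases are from the RefSeq table, which held 7 of the 10 members. The fit was tested on simulated data with independent noise in each gene. Shifts shared by the genes of a library and library sex were not simulated. Alternatives were other scalings (median-of-ratios, TPM, quantile), pseudocounts, filters, models and libraries left out.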

Additional observations from a re-analysis of the deposited data

How the results depend on the processing

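No member passed the threshold under any alternative that kept all libraries. Leaving out single libraries gave 0 to 2 called members, the 2 being Mmp19 and Timp1 without control 3, where no control has Y-linked RNA. The number of all genes called higher, 18 as reported, was 28 with median-of-ratios scaling, 41 with TPM, 32 with quantile normalization, 9 with a pseudocount of 0.1, 4 with no filter, 10 with limma without trend, 80 with limma-voom and 10 with library sex as a covariate. It was 9 with control 2 and mutant 1 both left out, and 3 (without mutant 2) to 189 (without control 3) with 1 library left out. Genes called lower, 0 as reported, were 1 with both left out, 1 with library sex as a covariate and 0 to 4 with 1 library left out. The median of the 10 members, 0.67 as reported, was 0.30 with both left out, 0.43 without control 2 alone and 0.41 with library sex as a covariate. In the fit with library sex, controls 1 and 2 set only the sex term, so its values set the mutants against control 3 alone. Timp3 was -0.04 with median-of-ratios scaling, -0.06 with TPM, -0.09 with quantile normalization, -0.04 with limma-voom, -0.02 with both left out and -0.03 (without mutant 1) to 0.18 with 1 library left out. Mmp3 was -0.08 with library sex as a covariate, and the log2 ratio of Mmp3 to Timp1 was 0.03 with a pseudocount of 1 in the ratio. Leaving both libraries out of the ratios, an alternative chosen after seeing the data, turned the direction of none of the 5. The cause of these changes was not tested.

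The median of all genes was 0.09 as deposited, -0.01 with median-of-ratios scaling and -0.03 with TPM or quantile normalization. Of genes at unadjusted p under 0.05, 93.4% were higher in mutants as deposited, 63.1% with median-of-ratios scaling, 59.6% with TPM, 54.6% with quantile normalization and 60.4% with limma-voom. Members other than Timp3 kept a positive difference under these scalings. The replicate block gave 67 genes called higher, 1 lower and 0 members. Same-numbered libraries had deviations correlated at 0.00159, 0.0367 and -0.0819, and 0 of 3 mutants correlated best with its own number. With 3 libraries per group, these correlations cannot settle whether the numbers pair the samples. With 3 libraries per group, intervals on the members are wide, and Timp1 and Mmp11 also rest on few reads.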
